A study of Mus musculus with 4 samples.

Results

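Type I interferon stimulated genes are the genes that cells switch on after sensing interferon alpha or beta. A list of 36 such genes was followed in mouse liver tumors after p53, the tumor suppressor, was switched back on. The list was chosen by name, with earlier results of these data already known. Each gene was read through every probe set (a group of short array probes) annotated to that gene alone. Of the 36 genes, 34 were measured, by 61 of the 45037 probe sets on the array. Isg15, the ubiquitin-like modifier of this response, and Ifi44 were not analysed here, since no probe set was annotated to either of them alone. Across the whole array 18193 genes were measured, and a gene was represented by its brightest probe set.

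The p53 on group held 2 arrays of tumors from mice that had eaten Doxycycline chow for 8 days. The p53 off group held 2 arrays of tumors at day 0, without Doxycycline. Tumors of both groups were HrasV12-driven, grew from liver progenitor cells (LPCs) placed into the livers of recipient mice, and carried the tet-off hairpin shp53, which Doxycycline silences. The drug, the time and the state of p53 changed together, so their effects cannot be told apart. The promoters of the transgenes, the strain, genotype, age and number of the mice, the number of cell lines transplanted and any pooling of animals are not stated in the labels, and the recipients' own liver, vessels and immune cells could be part of each sample. Values are log2 signals, on which a difference of 1 is a doubling, and they are compared between arrays for the same probe set, never between genes.

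In the type I interferon response, a cell that detects foreign or misplaced nucleic acid makes interferon, which binds the receptor pair Ifnar1 and Ifnar2 on the same or neighbouring cells. Janus kinases then activate a transcription complex that contains Stat2 and Irf9 and binds the interferon stimulated response element, a DNA element built from repeated GAAA letters. The genes it activates encode sensors that make the cell more alert, factors that amplify or dampen the signal, and effectors that attack viral RNA and proteins. Some are also transcribed at rest or through interferon gamma, so their level is no direct measure of interferon.

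Neither the p53 gene nor Hras was analysed here, so the state of p53 is that of the labels. Gene medians were 8.26 and 8.30 in the p53 on arrays, against 8.23 and 8.19 in the p53 off arrays. Correlations across genes were 0.993 between the p53 on arrays and 0.997 between the p53 off arrays, and ranged from 0.965 to 0.972 between the groups. The gap between the 3′ and 5′ probe sets of Actb, a sign of RNA quality, was 0.48 and 0.49 in p53 on and 0.39 and 0.26 in p53 off. Liver tumor epithelium was visible through the keratins Krt8 (12.72 and 12.64 in p53 on, 13.93 and 14.16 in p53 off) and Krt18 (12.35 and 12.22 in p53 on, 13.79 and 13.99 in p53 off). The p53 on arrays stood apart from each other in Afp, the fetal liver protein, with 8.47 in replicate 1 and 5.33 in replicate 2, against 9.16 and 9.15 in p53 off. Results are therefore also given with each p53 on array left out. Nothing in the labels says that replicates came from separate animals, so the tests measure the spread between these arrays, which may be partly technical.

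The response element is where Irf9 and Stat2 act, so the promoters were searched for it first. Windows of 300 bases around the gene's start were found in RefSeq (GRCm38.p6) for 25 of the 34 measured genes. The letters searched were GAAA, any 2 bases, and GAAA again, on both strands, with overlapping matches counted. They were present in a window of 12 of the 25 genes (48.0%), against 3.99% of all 27025 genes with a window and 3.44% of all 32851 windows. Among the genes called higher in p53 on below, 4 of 9 with a window held the letters, and among the genes not called 8 of 16 did. These shares were not tested against each other. With the last A dropped from the search, 13 of 25 genes (52.0%) matched, against 9.76% of all genes with a window and 8.56% of all windows. A match is a run of letters, not a proven site, and the absence of one says nothing of sequence outside the window.

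The windows below belong to 3 genes whose call held in each alternative analysis (Ddx58, Trim30a and Oasl2) and to 2 IFIT genes in which the p53 on arrays differed widely (Ifit1 and Ifit3). They are written 5′ to 3′ on the gene's strand, with matches in capitals and positions counted from 1 at the 5′ end. Ddx58 lies on the minus strand (chr4:40239776-40240075) and has 1 match, at positions 253 to 262. Trim30a, also on the minus strand, has 2 windows with 1 match each. The window shown (chr7:104465144-104465443) has it at 215 to 224. Oasl2 (chr5:114896684-114896983, plus strand) has none. Ifit1 (chr19:34640639-34640938, plus strand) has matches at 147 to 156 and at 166 to 175. Ifit3 (chr19:34583279-34583578, plus strand) has them at 95 to 104 and at 129 to 138.
Ddx58: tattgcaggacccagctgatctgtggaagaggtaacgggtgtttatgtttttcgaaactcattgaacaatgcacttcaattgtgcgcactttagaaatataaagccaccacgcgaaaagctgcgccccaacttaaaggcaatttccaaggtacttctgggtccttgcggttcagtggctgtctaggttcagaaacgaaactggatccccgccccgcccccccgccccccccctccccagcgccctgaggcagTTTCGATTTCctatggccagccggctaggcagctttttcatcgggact
Trim30a: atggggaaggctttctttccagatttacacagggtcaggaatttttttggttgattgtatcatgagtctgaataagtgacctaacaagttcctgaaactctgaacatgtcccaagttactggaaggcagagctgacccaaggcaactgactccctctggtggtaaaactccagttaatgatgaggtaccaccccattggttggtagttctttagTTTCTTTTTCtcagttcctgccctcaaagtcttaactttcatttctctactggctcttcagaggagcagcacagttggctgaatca
Oasl2: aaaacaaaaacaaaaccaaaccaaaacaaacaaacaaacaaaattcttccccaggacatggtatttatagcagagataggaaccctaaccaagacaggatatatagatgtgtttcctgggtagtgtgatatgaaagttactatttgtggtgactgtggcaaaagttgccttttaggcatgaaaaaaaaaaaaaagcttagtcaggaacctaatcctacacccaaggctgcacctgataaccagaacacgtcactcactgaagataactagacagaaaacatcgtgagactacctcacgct
Ifit1: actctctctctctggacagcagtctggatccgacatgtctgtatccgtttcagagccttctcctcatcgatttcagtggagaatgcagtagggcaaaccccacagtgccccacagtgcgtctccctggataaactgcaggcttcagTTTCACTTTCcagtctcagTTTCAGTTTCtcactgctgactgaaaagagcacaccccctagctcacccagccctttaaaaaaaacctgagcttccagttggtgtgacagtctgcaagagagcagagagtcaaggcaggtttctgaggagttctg
Ifit3: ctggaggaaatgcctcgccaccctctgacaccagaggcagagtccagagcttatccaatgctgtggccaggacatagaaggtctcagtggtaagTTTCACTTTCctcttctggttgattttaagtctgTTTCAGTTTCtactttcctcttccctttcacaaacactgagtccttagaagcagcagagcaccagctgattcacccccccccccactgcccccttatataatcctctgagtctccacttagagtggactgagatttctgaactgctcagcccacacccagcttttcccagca

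Interferon stimulated genes were mostly higher in p53 on, by small amounts. The change was above 0 in 33 of the 34 measured genes and below 0 in Isg20, with a median of 0.40 on the log2 scale, against 0.02 over all genes. Of all 18193 genes, 9959 had a change above 0. At an adjusted p under 0.05 (limma, Benjamini-Hochberg over all 18193 genes, 2 arrays per group) 10 of the 34 (29.4%) were called higher: Ddx58, Irf9, Ifit2, Oas1a, Oasl2, Cmpk2, Ifitm3, Trim30a, Dtx3l and Parp14. In the same fit 14.0% of all genes were called higher and 14.7% were called lower. No member was called lower (limma), while at an unadjusted p under 0.05 there were 21 higher and 1 lower. At that unadjusted threshold 3760 of all 18193 genes were higher and 3594 lower. Trim30a alone among the members changed by 1 or more on the log2 scale. Both p53 on arrays lay above both p53 off arrays in 26 of the 34 (76.5%), against 36.3% of all genes. They lay below both in Isg20 alone, against 30.4% of all genes. These samples are bulk tissue, in which more cells of a type cannot be told apart from more RNA per cell.

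**Figure D1:**
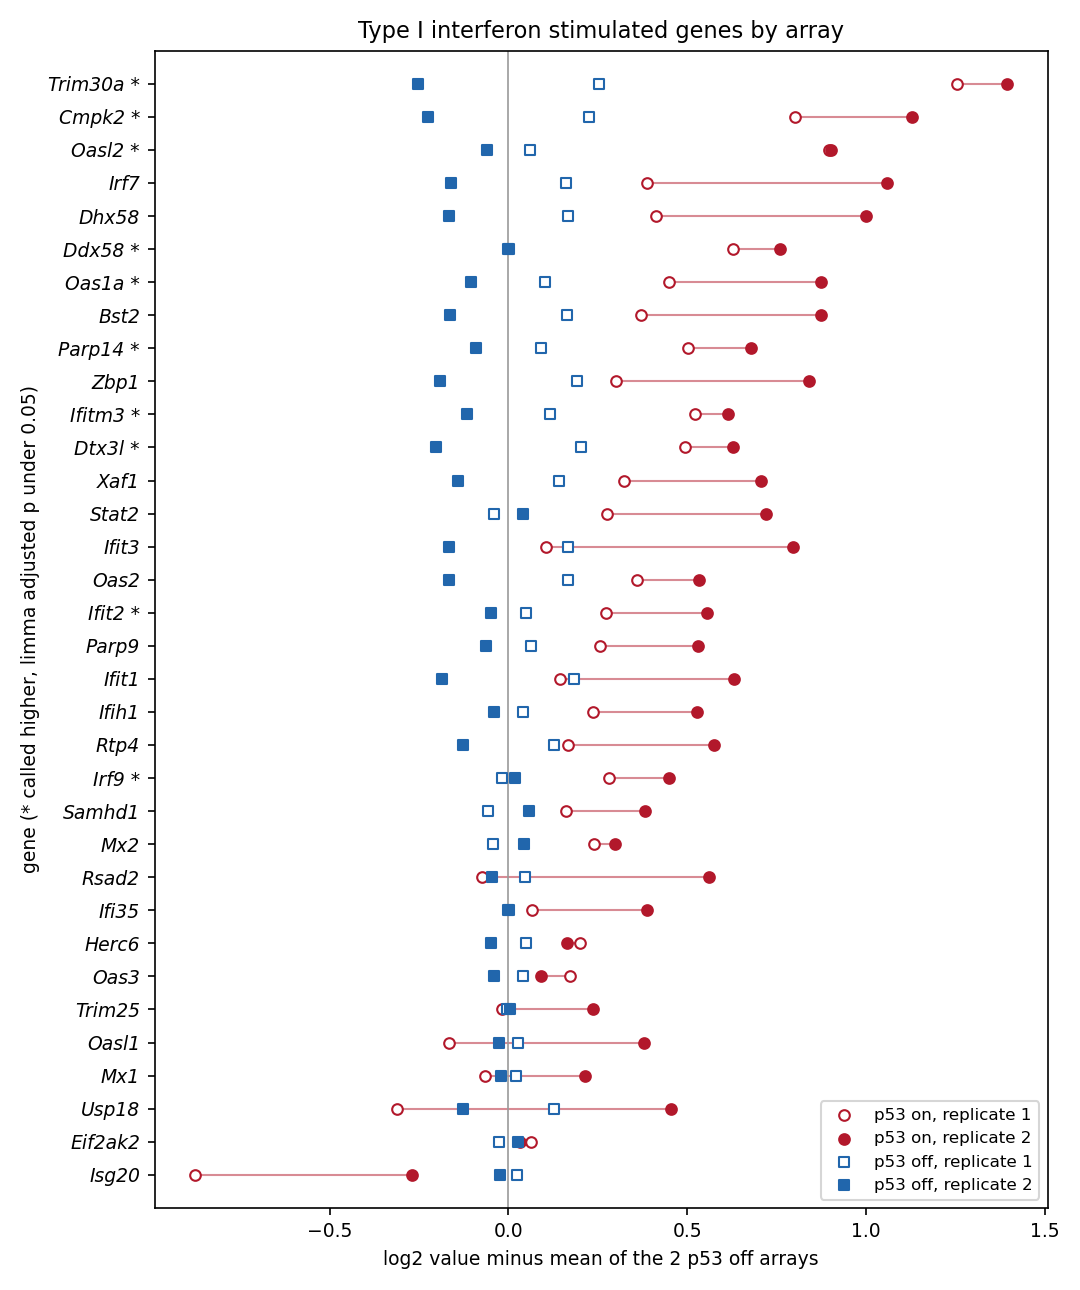
Each measured gene is a row, and each point is the log2 value of 1 array minus the mean of both p53 off arrays. Red circles are the p53 on arrays (open, replicate 1; filled, replicate 2), blue squares are the p53 off arrays, and a star marks the 10 genes called higher. The filled circle lies to the right of the open one in 31 of 34 genes, and Isg20 alone has both circles left of both squares.

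Leaving out each array in turn changed the count of members called higher to 27 without p53 on replicate 1 and to 7 without the other p53 on array, and to 8 without p53 off replicate 1 and to 3 without p53 off replicate 2. In these fits the lone array of a group is taken to vary as the other group does. Over all genes, higher calls also fell when either p53 off array was left out. Without p53 on replicate 1 the higher calls over all genes stayed near their reported number. The 3 genes called whichever array was left out were Ddx58, Oasl2 and Trim30a, and these were also called under all 15 alternatives. The median change of the 34 genes ranged over the same 4 fits between 0.26, without p53 on replicate 2, and 0.57, without p53 on replicate 1. Scaling the arrays to the spike-in controls called 20 members higher and raised the median of all genes to 0.13, that of the members standing at 0.51. Centring each array on its median called 9 higher and 1 lower, with medians of 0.33 for the members and -0.05 for all genes. Over all genes the fit called 2550 higher and 2673 lower, against 3448 and 1926 with spike-in scaling and 2106 and 3451 with centring.

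**Figure D2:**
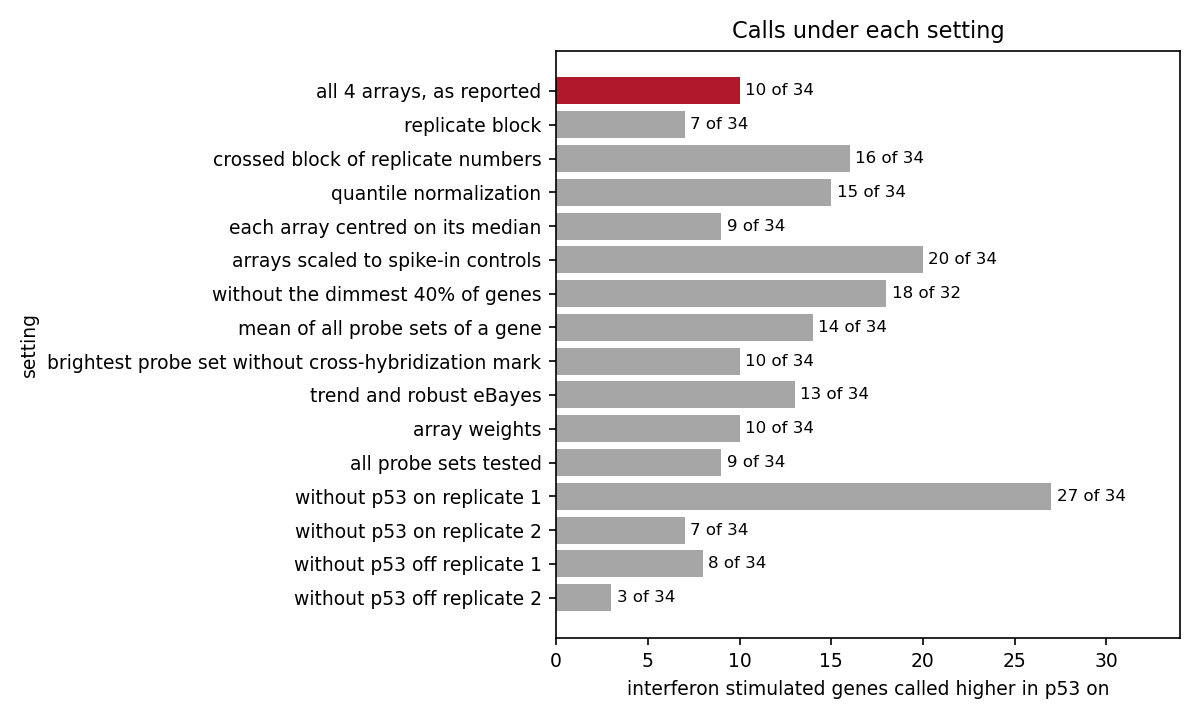
Horizontal bars give the number of interferon stimulated genes called higher in p53 on under each setting, with the reported fit in red. The count is 10 of 34 as reported and lies between 3 and 27 when single arrays are left out.

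The sensors were higher in both p53 on arrays than in both p53 off arrays for 4 of 4 genes, and 1 of them rose by the test. Ddx58, which encodes RIG-I, the sensor of short uncapped RNA, read 10.61 and 10.74 in p53 on, against 9.98 and 9.98 in p53 off. The p53 off arrays were nearly equal, and the rise of 0.69 ± 0.08 (SE, n = 2 arrays per group), or 1.62-fold, had an adjusted p of 0.00320 (limma). Its window shown above holds 1 match to the response element. Ifih1, which encodes MDA5, the sensor of long double-stranded RNA, read 10.42 and 10.71 in p53 on and 10.22 and 10.14 in p53 off, a difference of 0.38 ± 0.12 (adjusted p = 0.0599). Dhx58, which encodes LGP2, a relative of both that lacks their signalling domains, read 7.44 and 8.03 in p53 on and 7.19 and 6.86 in p53 off, a difference of 0.71 ± 0.22 (adjusted p = 0.0622). In both the groups were separate, and p53 on replicate 2 was the higher p53 on array. For Ifih1 and Dhx58 the p53 on arrays were 0.29 and 0.59 apart, and the p53 off arrays 0.08 and 0.33. Zbp1, a sensor of left-handed nucleic acid that can start cell death, read 8.85 and 9.39 in p53 on and 8.74 and 8.36 in p53 off (difference 0.57 ± 0.21, adjusted p = 0.104). Without p53 on replicate 1, Ifih1, Dhx58 and Zbp1 were called too, with changes of 0.53, 1.0 and 0.84.

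The factors that carry, amplify or dampen the signal split between 3 genes with separate groups and 1 with overlapping groups. Irf9, the DNA-binding subunit of the activated complex, read 9.57 and 9.74 in p53 on, against 9.27 and 9.31 in p53 off. It rose by 0.37 ± 0.09, or 1.29-fold (adjusted p = 0.0297, limma), a small rise over p53 off arrays that lay close together. The call was lost without p53 on replicate 2 (adjusted p = 0.0793), without p53 off replicate 1 (0.136) and without p53 off replicate 2 (0.133). Stat2, its partner, read 8.04 and 8.49 in p53 on and 7.73 and 7.80 in p53 off, a difference of 0.50 ± 0.15 (adjusted p = 0.0636). Irf7, the factor that drives interferon alpha genes, read 9.91 and 10.58 in p53 on and 9.68 and 9.36 in p53 off, a difference of 0.72 ± 0.24 (adjusted p = 0.0742). For both genes replicate 2 of p53 on was clearly the higher array, and without replicate 1 they were called with changes of 0.72 and 1.06. Usp18, a protease that removes Isg15 and damps the receptor, read 9.73 and 10.50 in p53 on, against 10.17 and 9.92 in p53 off. One p53 on array lay below both p53 off arrays and the other above them, so the change of 0.07 ± 0.25 (adjusted p = 0.871) averages opposite deviations, and it was -0.31 with replicate 2 left out and 0.45 with replicate 1 left out.

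Of the 10 IFIT, MX and OAS effectors 3 rose, and the families were uneven within themselves. Oasl2, an oligoadenylate synthetase with ubiquitin-like domains, read 10.66 and 10.67 in p53 on, against 9.83 and 9.71 in p53 off. The p53 on arrays differed by 0.01 and the rise of 0.90 ± 0.08, or 1.86-fold, had an adjusted p of 0.00149 (limma). Oas1a, which makes the oligoadenylates that activate RNase L, read 11.24 and 11.66 in p53 on and 10.89 and 10.69 in p53 off, and rose by 0.66 ± 0.16 (adjusted p = 0.0304). Its call was lost without p53 off replicate 1 (adjusted p = 0.0697) and without p53 off replicate 2 (0.166). Oas2, of the same family, read 9.46 and 9.63 in p53 on and 9.26 and 8.93 in p53 off, a difference of 0.45 ± 0.13 (adjusted p = 0.0588), with separate groups. Oas3, a further gene of this family, differed by 0.13 ± 0.08 (adjusted p = 0.274, limma). For Oasl1, a mouse repressor of Irf7 translation, the groups overlapped, at 8.70 and 9.24 in p53 on and 8.89 and 8.83 in p53 off (difference 0.11 ± 0.18, adjusted p = 0.711). Oas2 was called without p53 on replicate 1 (0.53) or without p53 off replicate 1 (0.61), and Oasl1 without p53 on replicate 1 (0.38).

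The IFIT proteins bind viral RNA and block its translation. Ifit2 read 9.29 and 9.57 in p53 on, against 9.07 and 8.97 in p53 off, and rose by 0.41 ± 0.11, or 1.33-fold, at an adjusted p just inside the threshold (0.0471, limma). Of the 10 calls it was the least stable, lost under 7 of 15 alternatives, among them without p53 on replicate 2 (change 0.27, adjusted p = 0.102), without p53 off replicate 1 (0.118) and without p53 off replicate 2 (0.227). Ifit1 read 9.53 and 10.02 in p53 on and 9.57 and 9.20 in p53 off (difference 0.39 ± 0.20, adjusted p = 0.210). Ifit3 read 10.17 and 10.86 in p53 on and 10.23 and 9.90 in p53 off (difference 0.45 ± 0.24, adjusted p = 0.232). In both genes, whose windows above each hold 2 matches, p53 on replicate 1 lay between the p53 off arrays and replicate 2 lay above them. Without replicate 1 they were called, at 0.63 and 0.80. The MX proteins are GTPases that trap viral capsids, and the Mx1 gene is defective in many laboratory strains. Mx1 read 6.20 and 6.48 in p53 on and 6.29 and 6.25 in p53 off (difference 0.07 ± 0.11, adjusted p = 0.673). Mx2 read 8.47 and 8.53 in p53 on and 8.19 and 8.27 in p53 off, a difference of 0.27 ± 0.08 with separate groups that missed the threshold (adjusted p = 0.0527).

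Among the 7 other antiviral effectors 2 rose and Isg20 stood on the other side of 0. Cmpk2, a mitochondrial nucleotide kinase, read 8.76 and 9.09 in p53 on, against 8.18 and 7.73 in p53 off, and rose by 0.97 ± 0.18, or 1.95-fold (adjusted p = 0.0143, limma). The p53 off arrays differed by 0.45, more than the p53 on arrays did, and without p53 off replicate 2 the adjusted p was 0.0634. Ifitm3, a membrane protein that blocks viral entry, read 14.07 and 14.16 in p53 on and 13.66 and 13.43 in p53 off, and rose by 0.57 ± 0.10 (adjusted p = 0.0123, and 0.0724 without p53 off replicate 2). Bst2, the tether that holds budding virus at the cell surface, read 10.34 and 10.84 in p53 on and 10.13 and 9.80 in p53 off, a difference of 0.62 ± 0.19 (adjusted p = 0.0660). Its groups were separate, and without p53 on replicate 1 it was called at 0.87. Rsad2, which encodes viperin, an enzyme that makes a chain-terminating nucleotide, read 9.50 and 10.13 in p53 on and 9.62 and 9.53 in p53 off (difference 0.24 ± 0.21, adjusted p = 0.444). Here p53 on replicate 1 was the lowest of the 4 arrays and replicate 2 the highest, and without replicate 1 the gene was called at 0.56.

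Samhd1, which hydrolyses the building blocks of DNA, differed by 0.27 ± 0.10 (adjusted p = 0.111), and without p53 on replicate 1 it was called at 0.38. Eif2ak2, which encodes PKR, the kinase that stops translation on double-stranded RNA, read 8.38 and 8.35 in p53 on and 8.29 and 8.35 in p53 off, a difference of 0.05 ± 0.07 (adjusted p = 0.675). Isg20, an RNA exonuclease, read 8.27 and 8.88 in p53 on, against 9.17 and 9.12 in p53 off. Both p53 on arrays lay below both p53 off arrays, by unequal amounts, and the difference of -0.57 ± 0.20 was not called (adjusted p = 0.0857). It was called lower without p53 on replicate 2 (-0.88, adjusted p = 0.00184) and after centring on array medians (-0.65, adjusted p = 0.0374).

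Enzymes that attach ubiquitin, Isg15 or ADP-ribose included 3 rises in 6 measured genes. Trim30a, a mouse tripartite-motif protein that restrains Toll-like receptor signalling, read 9.58 and 9.73 in p53 on, against 8.58 and 8.08 in p53 off. Both p53 on arrays were at least 1 log2 unit above the higher p53 off array, and the rise of 1.32 ± 0.17, or 2.50-fold, had an adjusted p of 0.00455 (limma). Parp14, a mono-ADP-ribosyltransferase, read 9.18 and 9.36 in p53 on and 8.77 and 8.59 in p53 off, and rose by 0.59 ± 0.10 (adjusted p = 0.0114, and 0.0794 without p53 off replicate 2). Dtx3l, a ubiquitin ligase, read 10.86 and 10.99 in p53 on and 10.57 and 10.16 in p53 off, and rose by 0.56 ± 0.15 (adjusted p = 0.0403). Without p53 on replicate 2 or p53 off replicate 2 its adjusted p was 0.0849 or 0.139, and without the second of these its change was 0.36. Parp9, its binding partner, read 9.88 and 10.15 in p53 on and 9.69 and 9.56 in p53 off, a difference of 0.39 ± 0.12 just outside the threshold (adjusted p = 0.0560), and without p53 on replicate 1 it was called at 0.53. Herc6, the main ligase for Isg15 in mouse, differed by 0.18 ± 0.08 (adjusted p = 0.142). Trim25, a ubiquitin ligase that acts on RIG-I, read 10.98 and 11.23 in p53 on and 10.99 and 11.00 in p53 off (difference 0.11 ± 0.10, adjusted p = 0.495), with 1 p53 on array on each side of the p53 off pair.

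The 3 remaining measured genes had separate groups, and none was called (limma), while 1 of them had an unadjusted p under 0.05. Xaf1, which binds the apoptosis inhibitor XIAP, read 10.80 and 11.18 in p53 on and 10.61 and 10.33 in p53 off, a difference of 0.52 ± 0.16 (adjusted p = 0.0650). Rtp4, a receptor-transporting protein, read 11.14 and 11.55 in p53 on and 11.10 and 10.85 in p53 off, a difference of 0.37 ± 0.16 (adjusted p = 0.152). Ifi35, an interferon-induced leucine zipper protein, differed by 0.23 ± 0.12 (adjusted p = 0.222). Without p53 on replicate 1 these were called as well, at 0.71, 0.58 and 0.39.

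The p53 on arrays did not agree on the size of the response. Replicate 2 was higher than replicate 1 in 31 of the 34 genes (91.2%), against 60.2% of all genes. The exceptions were Eif2ak2, Herc6 and Oas3, whose p53 on arrays differed by 0.03, 0.03 and 0.08. The median of replicate 1 minus replicate 2 was -0.29 over the members and -0.04 over all genes. With 1 array on each side this difference has no test. Measured against the mean of p53 off, the median of the members was 0.26 in replicate 1 and 0.57 in replicate 2, and over all genes it was 0.01 and 0.03. Replicate 1 lay above both p53 off arrays in 26 members (76.5%), against 43.7% of all genes, and replicate 2 in 33 (97.1%), against 48.1%.

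The 2 p53 on arrays were more than 0.5 apart in 9 members (26.5%), against 2.13% of all genes. These were Usp18, Ifit3, Irf7, Rsad2, Isg20, Dhx58, Oasl1, Zbp1 and Bst2, at 0.77, 0.69, 0.67, 0.64, 0.61, 0.59, 0.55, 0.54 and 0.50, and none of them is among the 10 genes called higher. Ddx58, Ifitm3 and Oasl2, which were called, were 0.13, 0.09 and 0.01 apart. A wide gap raises the error in the test, so the call and the gap are not independent. The p53 off arrays also stood in one order, with replicate 1 above replicate 2 in 27 members (79.4%), against 51.9% of all genes, and the median gap in size was 0.29 in p53 on and 0.12 in p53 off. Over all genes these median gaps were 0.10 in p53 on and 0.09 in p53 off. In 10 members (29.4%) the gap in p53 on exceeded the change itself, as it did in 33.5% of all genes.

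**Figure D3:**
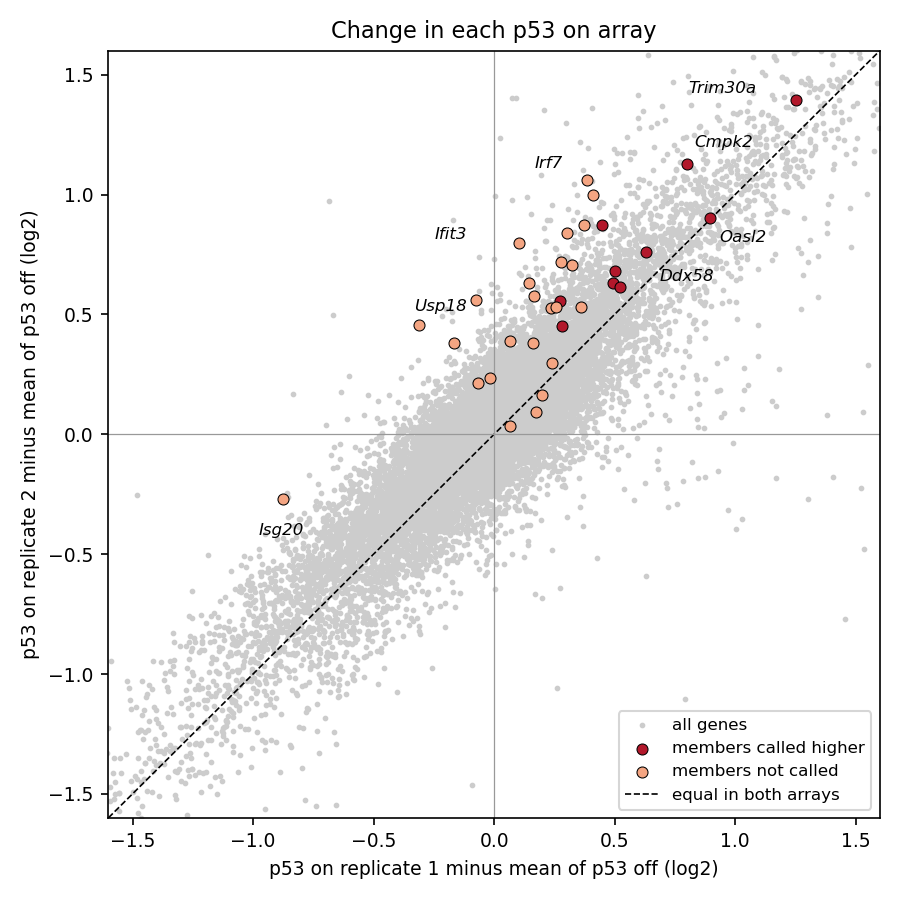
Each point is a gene, with the log2 difference from the mean of p53 off in p53 on replicate 1 (horizontal axis) and in replicate 2 (vertical axis). Grey points are all genes, 386 of which lie beyond the axes, dark red points are the 10 members called higher and light red points are the members not called. Most members lie above the dashed line of equal difference, and Usp18 lies left of 0 in replicate 1 and above 0 in replicate 2.

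The array layout gives 16 of the measured genes more than 1 probe set. Fitted over all 45037 probe sets, 13 of the 61 member probe sets (21.3%) were called higher, against 11.3% of all probe sets, and 1 was called lower, against 11.5%. The change was above 0 in 57 of the 61, with a median of 0.34, against 0.03 over all probe sets. Trim30a and Dtx3l had both of their probe sets called, at 1.32 and 0.76 for Trim30a and at 0.56 and 0.78 for Dtx3l. In Ddx58 2 of 3 were called (0.69 and 0.74) and the third differed by 0.34. In Cmpk2 and Parp14 the brighter probe set was called (0.97 and 0.59) and the dimmer one was not (0.18 and 0.43). Herc6 was called by 1 of its 4 probe sets, not the brightest, which read 7.40 and 7.61 in p53 on and 7.06 and 6.85 in p53 off (0.55, adjusted p = 0.0220, limma over probe sets).

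Trim25 had the single member probe set that was called lower. This probe set, its dimmest, read 7.48 and 7.50 in p53 on, against 8.67 and 8.22 in p53 off, and fell by 0.95 on the log2 scale (adjusted p = 0.0102, limma over probe sets). The other two probe sets were not called, at 0.11 and 0.21. The remaining 9 genes with several probe sets had none called (limma over probe sets). Among these Zbp1 reached 0.85 and Rsad2 0.46 in a dimmer probe set, and Rtp4 and Samhd1 each had a probe set just below 0, at -0.06 and -0.01.

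**Figure D4:**
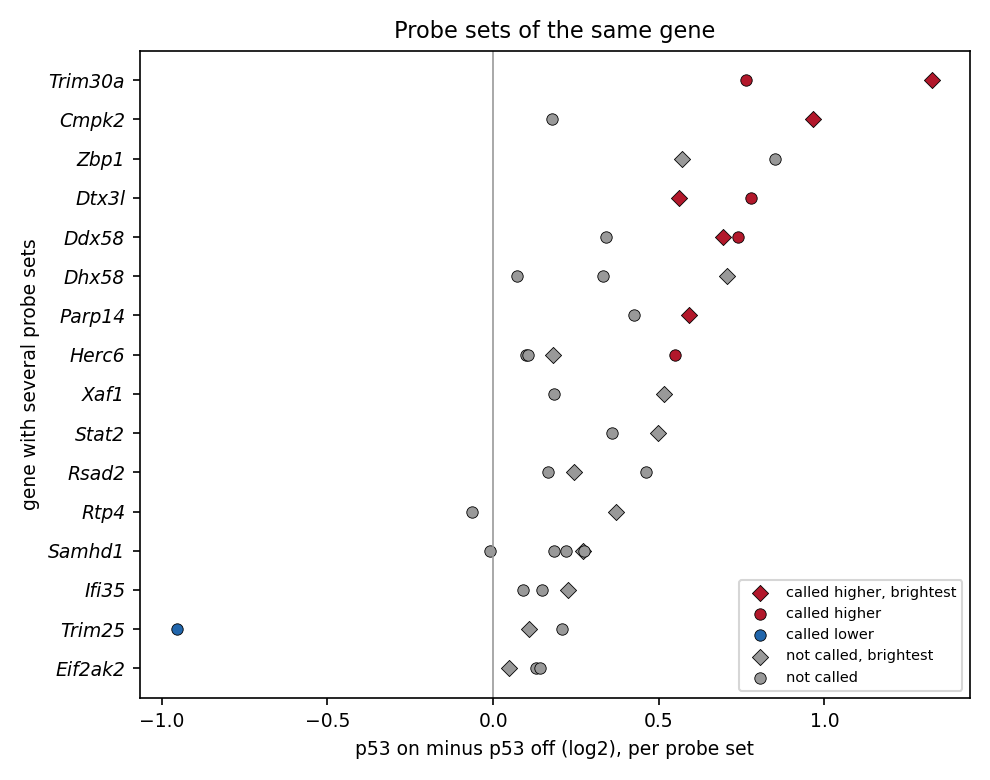
Each row is 1 of the 16 genes with several probe sets, and each point is the log2 difference p53 on minus p53 off of 1 probe set, with a diamond for the brightest. Red marks probe sets called higher, blue the single one called lower, in Trim25 at -0.95, and grey those not called.

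Several members are neighbours in the RefSeq gene order, in 6 adjacent pairs that hold 11 genes. Parp14 and Dtx3l changed alike, by 0.59 and 0.56, and Dtx3l is next to Parp9, at 0.39. Ifit2 and Ifit3 differed from p53 off by nearly the same amount, 0.41 and 0.45, although the first was called and the second was not. Other neighbours went different ways in size. Oasl2 changed by 0.90 and Oasl1 by 0.11, Cmpk2 by 0.97 and Rsad2 by 0.24, and Oas2 and Oas3 differed by 0.45 and 0.13. The differences between neighbours were not tested.

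Interferon pathway genes outside the list gave a wider view. Counted once, 86 of 105 such genes were measured, of which 49 (57.0%) were higher and 3 (3.49%) lower (limma), with a median change of 0.41. Over all genes 14.0% were called higher and 14.7% lower, and these shares are the background for each list below. The genes that encode interferons had the smallest median of the 6 lists, 0.003 over 10 measured of 18, with 1 called higher (Ifnz, a mouse type I interferon, 9.39 and 9.35 in p53 on and 8.73 and 8.84 in p53 off) and 1 lower. The lower one was Ifna5, an interferon alpha, at 6.42 and 6.41 in p53 on and 6.77 and 6.81 in p53 off, a call that was lost when either p53 off array was left out (adjusted p = 0.0701 and 0.107) and with spike-in scaling (0.0654). Ifnb1, which encodes interferon beta, read 6.84 and 6.91 in p53 on and 7.13 and 6.78 in p53 off (adjusted p = 0.687). RMA gives no detection call, and a probe set that reads nothing also has a low value.

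Of 13 measured receptor and JAK-STAT genes 7 rose and none fell (limma, nor was any lower at an unadjusted p under 0.05), with a median of 0.36, and 4 were called when either p53 off array was left out. Jak1, a kinase on both interferon receptors, rose by 0.65, and Ifngr1 and Ifngr2, the receptor for interferon gamma, rose by 0.61 and 0.54. Il10rb, a chain shared by the receptors for interferon lambda and interleukins, rose by 0.52. The call of Ifngr2 was lost without p53 off replicate 1 (adjusted p = 0.0627). Ifnar1 and Ifnar2, the type I receptor, differed by 0.13 and 0.17 and were not called. In the pathway that leads to interferon production 8 of 13 rose and none fell (limma, with 1 lower at an unadjusted p under 0.05), with a median of 0.28. The rises numbered 3 when either p53 off array was left out, and 1 gene was called lower after centring on array medians or without p53 on replicate 1. Its largest rises were in the endosomal RNA receptors Tlr7 and Tlr3 (1.21 and 0.87, with 0.42 for Tlr7 as the mean of its probe sets), in Sting1, the adaptor for cytosolic DNA (0.75), and in the adaptor Myd88 (0.50), which was not called without p53 off replicate 1 (adjusted p = 0.0788) or replicate 2 (0.0651). Of 6 other measured interferon regulatory factors 5 rose and none fell (limma, nor was any lower at an unadjusted p under 0.05), with a median of 0.34. The largest rise was in Irf8, a factor of myeloid cells (1.49), followed by Irf2 (0.56), Irf3 (0.38) and Irf1 (0.30). Of these 6 factors 3 were called with median centring or without p53 on replicate 2, 2 without p53 off replicate 1 and 1 without p53 off replicate 2. Irf3 was not called by its brightest probe set free of a cross-hybridization mark (0.19, adjusted p = 0.174).

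Interferon stimulated genes that are not on the list, 29 measured, included 18 that rose and 2 that fell, with a median of 0.62, and 9 rose without p53 off replicate 2. Pml, the organiser of nuclear bodies, rose by 1.20 (0.77 as the mean of its probe sets), Ifi27 by 1.17 and Slfn5, of the Schlafen family, by 1.15. Ifitm1, a relative of Ifitm3, fell by 1.20 on the log2 scale, reading 11.57 and 11.87 in p53 on and 13.02 and 12.84 in p53 off, and Slfn9 fell by 0.43. When either p53 off array was left out, 1 gene of this list was called lower. Among 18 measured interferon gamma responsive genes 12 rose and none fell (limma, nor was any lower at an unadjusted p under 0.05). Their median was 0.66, and fewer rose without p53 off replicate 2. The 12 rises were led by the GTPases Iigp1 (1.63), Gbp8 (1.45), Gbp6 (1.39) and Gbp2 (1.12), which act on vacuoles that hold pathogens. Cxcl10, a chemokine induced by interferons, was not called, and read 8.24 and 8.95 in p53 on and 8.57 and 8.33 in p53 off. Of the other chemokines on this list, Cxcl9 was called higher (0.68, adjusted p = 0.00355, limma) and Cxcl11 was not called (0.29). Replicate 2 of p53 on was the higher array in 24 of the 29 other stimulated genes (median of replicate 1 minus replicate 2 -0.16) and in 16 of the 18 interferon gamma genes (-0.16), against 31 of the 34 members (-0.29). It was the higher array in 5 of 10 interferon genes.

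**Figure D5:**
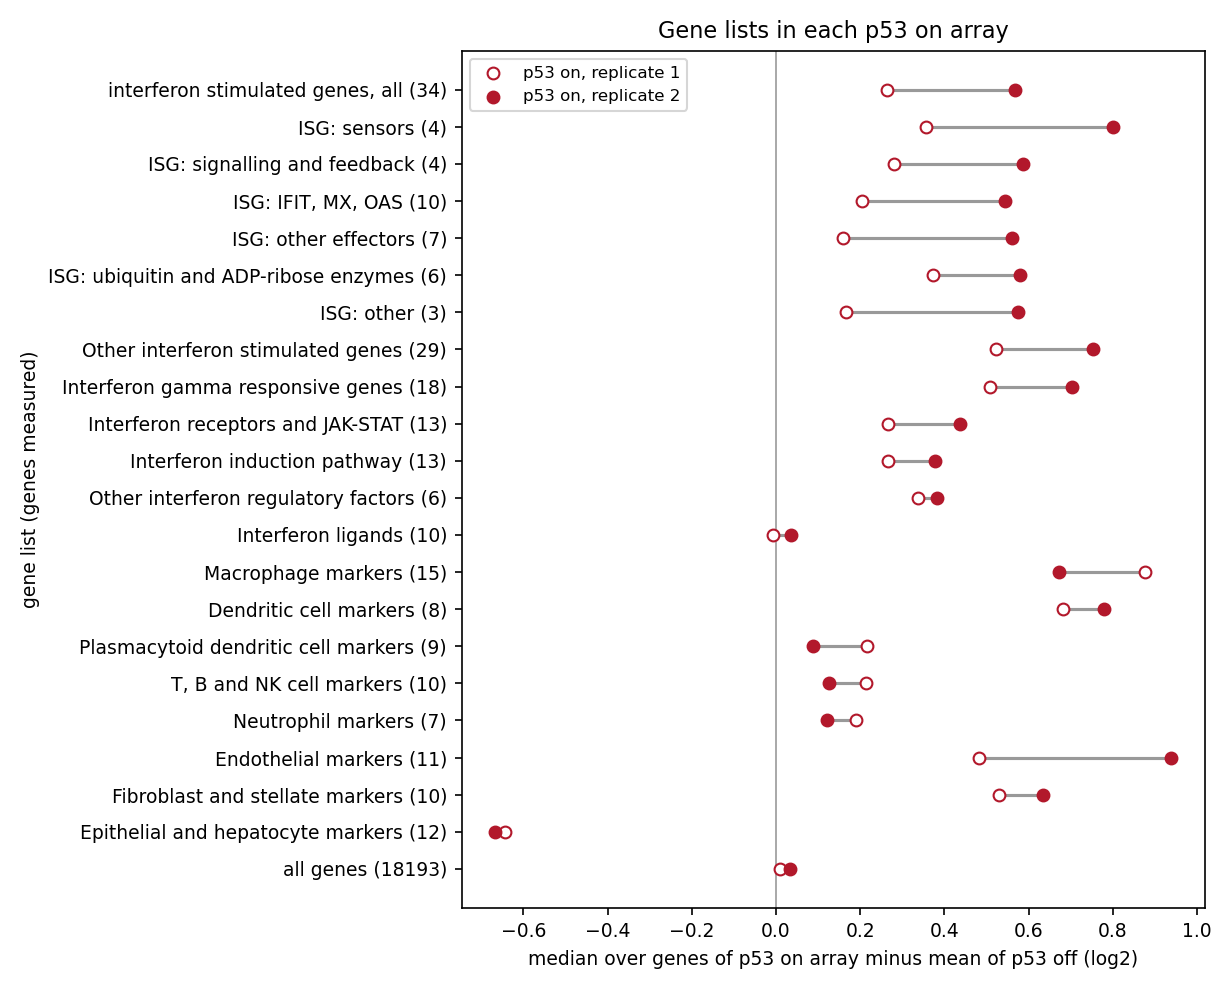
Each row is a gene list, with the number of genes measured in brackets, and the points give its median log2 difference from the mean of p53 off in p53 on replicate 1 (open) and replicate 2 (filled). The interferon stimulated genes stand at 0.26 and 0.57, endothelial markers are also further right in replicate 2, macrophage markers are further right in replicate 1, and epithelial markers lie left of 0 in both.

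Macrophage, dendritic cell, endothelial and fibroblast markers were mostly higher in p53 on, as the interferon stimulated genes were. The share of all genes called was 14.0% higher and 14.7% lower. Of 15 macrophage markers 10 rose, led by Adgre1 (1.17) and Csf1r (1.16), and none fell (limma, nor was any lower at an unadjusted p under 0.05). For these 15 their mean level was 10.15 and 9.97 in p53 on and 9.45 and 9.53 in p53 off. Dendritic cell markers, 8 measured of 9, included 6 that rose, led by Zbtb46 (2.75, or 1.30 as the mean of its probe sets), with mean levels of 8.41 and 8.32 in p53 on and 7.38 and 7.49 in p53 off. Endothelial markers included 8 rises, led by Tek (1.40), and 1 fall (Lyve1) in 11, with mean levels of 8.90 and 9.21 in p53 on and 8.50 and 8.44 in p53 off. Fibroblast and stellate markers included 9 rises, led by Lum (3.01), and 1 fall (Lrat) in 10. When either p53 off array was left out 4 endothelial rises were called, and without p53 off replicate 2 there were 4 fibroblast and stellate rises. Neither fall was called without p53 off replicate 1, and that of Lrat was not called without p53 on replicate 2. Of 12 epithelial and hepatocyte markers 1 rose and 6 fell. The rise was in Epcam, which was not called without p53 off replicate 2 or by a probe set free of a cross-hybridization mark. Mean levels of the 12 were 9.45 and 9.18 in p53 on and 9.94 and 10.04 in p53 off. These means include Afp, at 8.47 in p53 on replicate 1 and 5.33 in replicate 2. Over the 12 markers the median of p53 on replicate 1 minus replicate 2 was 0.01, and 6 were higher in replicate 2. The lower mean in replicate 2 is therefore no general drop of these markers.

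Plasmacytoid dendritic cells, known as strong producers of type I interferon, were read through 9 markers, of which 2 rose (Tcf4 and Lair1). The count was 4 with spike-in scaling or without p53 on replicate 1, and 1 without p53 off replicate 2. Their mean level was 7.90 and 7.87 in p53 on and 7.56 and 7.47 in p53 off. Siglech, a defining surface marker of these cells in mouse, read 7.11 and 7.09 in p53 on and 7.09 and 7.14 in p53 off, so the groups overlapped. T, B and NK cell markers (median change 0.16) had 3 rises in 10 measured, 5 with spike-in scaling, 1 without p53 off replicate 1 and 0 without p53 off replicate 2. Neutrophil markers (median change 0.11) had 1 rise in 7, and 0 without p53 on replicate 2 or when either p53 off array was left out. In the reported fit the T, B and NK cell markers called were Ncr1 (0.69), Klrk1 (0.59) and Eomes (0.37), and the neutrophil marker called was Csf3r (0.38). No other marker of either list was called. Between the p53 on arrays, the endothelial markers were higher in replicate 2 in 11 of 11 genes (median of replicate 1 minus replicate 2 -0.32), as the interferon stimulated genes mostly were. The macrophage markers were higher in replicate 2 in 3 of 15 (median 0.16). The part of these cells, and of the gap in Afp, in the levels of the interferon stimulated genes was not tested.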

How the data were processed

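Total RNA of 4 tumor samples was hybridized to 4 Affymetrix mouse whole-genome arrays, 2 per group, and groups were read from the labels. The deposited values are log2 signals that the authors made with RMA, per the submitters' processing notes. RMA corrects background, equalises the arrays' distributions and summarises probes. The same notes name limma 3.14.4. RMA gives no detection call, so dim genes carry values near background and their changes are compressed. The number of arrays limits the precision. The build is not given in the sources used here.

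Of 45101 probe sets 64 were controls. A platform annotation paired 34945 with 1 gene, 932 with several and 9160 with none (unnamed here). The probe set with the highest mean over all arrays stood for a gene, with no filter on dim genes. Genes were fitted as p53 on minus p53 off with lmFit and eBayes (limma 3.58.1, R 4.3.3, statmod 1.5.0), with no block. Degrees of freedom were 2 residual and 5.47 after moderation. Benjamini-Hochberg adjustment ran over all 18193 genes, or over all 45037 probe sets, and an adjusted p under 0.05 was called. The fit was tested on simulated data. RefSeq tables (GRCm38.p6) gave names, gene order and promoter windows. Figures were drawn with Python 3.11.15, pandas 2.3.3 and matplotlib 3.10.9.

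The members and lists were chosen with earlier results of these data known. The text names all 36 members, up to 4 called genes of each other list with the largest change, and members whose probe sets disagree. Afp, Cxcl9, Cxcl10, Cxcl11, Ifnar1, Ifnar2, Ifnb1, Siglech, Slfn9, Lyve1, Lrat, Epcam and Actb were named after their values were seen. Alternatives were a replicate block, quantile normalization, median centring, spike-in scaling, leaving out the dimmest 40% of genes and the mean of a gene's probe sets. Another took a gene's brightest probe set free of a cross-hybridization mark, where it had one. The rest were array weights, eBayes with trend and robust settings, a fit over all probe sets, and dropping each array. A block with crossed replicate numbers was chosen after seeing the data.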

Additional observations from a re-analysis of the deposited data

How the results depend on the processing

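Of the 10 genes called higher, 3 (Ddx58, Oasl2 and Trim30a) were called under all 15 alternatives and 7 lost the call under 1 or more. Of the 24 not called, 19 gained a call under 1 or more alternatives, and the 5 that did not were Mx1, Oas3, Eif2ak2, Herc6 and Trim25. The count of 10 called higher was 20 with spike-in scaling and 18 of 32 without the dimmest 40% of genes, where fewer genes are tested, and between 3 and 27 when single arrays were left out. The count of 0 called lower was 1 (Isg20) with median centring and between 0 and 1 when single arrays were left out. Of member probe sets, 13 called higher became 31 with spike-in scaling and between 6 and 29 with single arrays left out, and the 1 called lower became 2 with median centring and between 1 and 2 with single arrays left out. The number of members higher in p53 on replicate 2 than in replicate 1 was 31 and lay between 29 (of 32, without the dimmest genes) and 33 under the other scalings and probe set choices. The cause of these shifts was not tested. For probe sets, the shares over all 45037 (11.3% higher and 11.5% lower) are those of the reported fit. They are not given for the other settings, so the shifts in member probe sets have no background beside them. Without the dimmest 40% of genes, 2223 of the 10916 genes left were called higher. With spike-in scaling 3448 of 18193 were. Over all genes, 2550 higher and 2673 lower became 1583 and 1676 without p53 off replicate 1, and 1093 and 1135 without p53 off replicate 2.

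The replicate numbers are not known to pair the samples. With the replicate block, 7 members and 9 member probe sets were called higher, beside 2027 of all 18193 genes. The crossed pairing, tried because replicate differences of the groups correlated at -0.15 over all genes, called 16 members and 19 member probe sets higher. Of all genes it called 1984 higher.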
